A study of Mus musculus with 9 samples.

Results

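The collagen genes of the mouse liver were examined here in 3 groups of 3 samples each. They were chosen by symbol alone: every gene of the deposited data whose mouse symbol is Col, a number, the letter a and a number. This gave 40 genes of 16521, of which 10 encode fibrillar collagens, 6 encode the basement membrane collagen IV and 24 encode other collagens. Of 44 such symbols in the reference table of gene names, Col2a1, Col9a1, Col19a1 and Col26a1 had no row and were not analysed here.

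The SAR group (n = 3) was C57BL/6 mice on a methionine-choline-deficient (MCD) diet that were treated with a high dose of sarsasapogenin (SAR), a plant steroid, at an amount the labels do not state. The model group (n = 3) was C57BL/6 mice on the MCD diet, which in rodents leads to steatosis, inflammation and scarring of the liver. The normal group (n = 3) was C57BL/6 mice given saline, and the SAR and model groups shared the diet. The animals were allotted at random, and the sources used here state neither their age nor the length of the diet. No label states that each sample is its own mouse. The p-values therefore reflect only how these samples vary, which may be technical.

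Collagens are triple-helical proteins of the extracellular matrix. The fibrillar types I, III and V build the fibres of scar tissue, collagen IV forms the sheet-like network of basement membranes, and collagen VI forms beaded filaments that link cells to both. In fibrotic liver most fibrillar collagen is made by activated hepatic stellate cells and portal fibroblasts, whereas hepatocytes are the main source of collagen XVIII, whose C-terminal fragment is endostatin.

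The deposited data give group means only. Reads per library were recovered from them for all 40 collagen genes, and the libraries of a group were named a, b and c by falling size factor, with no tie to the replicate numbers of the labels. Levels below are normalised reads, meaning reads divided by size factors on 1 scale for all 9 libraries, and are printed in the order a, b, c. The SAR libraries held between 36128772 and 37431401 reads together, the model libraries 12503819, 13320823 and 14939063 reads, and the normal libraries between 43027068 and 46074165 reads together. Model library c and normal library c stood apart from the other libraries of their groups. Over 12283 genes their log2 levels correlated with the other libraries at r = 0.927 and 0.940 (model) and 0.934 and 0.925 (normal), against 0.980 between model a and b and 0.977 between normal a and b. Among the 28 collagen genes with values given below, library c was the lowest of its group for 17 in SAR, 23 in model and 21 in normal. Each collagen call was therefore recomputed without each library, and the calls that changed are given beside it. The tissue label was checked against hepatocyte markers: in the authors' deposited table albumin (Alb) had means of 1.21101e+06 in SAR, 677634 (in the table with SAR) and 738902 (in the table with normal) in model, and 842230 in normal livers.

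The sequences just upstream of 4 collagen genes are shown for the members whose patterns are contrasted below: Col3a1 and Col5a1 were higher in model livers and lower with SAR, Col5a3 was not, and Col13a1 was lower in model livers. Each is the 250 bases before the annotated start in RefSeq, build GRCm38.p6, none of which overlaps an annotated exon. Capitals mark a CCAAT box (CCAAT or ATTGG), a GC box (GGGCGG or CCGCCC) or a TATA box (TATAAA or TTTATA), searched on both strands.
Col3a1 (chr1:45311288-45311537, plus strand): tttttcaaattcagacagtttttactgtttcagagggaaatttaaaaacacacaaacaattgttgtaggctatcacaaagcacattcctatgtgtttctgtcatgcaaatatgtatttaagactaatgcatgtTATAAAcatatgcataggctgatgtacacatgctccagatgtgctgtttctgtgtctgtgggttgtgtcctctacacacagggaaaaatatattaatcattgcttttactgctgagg
Col5a1 (chr2:27886175-27886424, plus strand): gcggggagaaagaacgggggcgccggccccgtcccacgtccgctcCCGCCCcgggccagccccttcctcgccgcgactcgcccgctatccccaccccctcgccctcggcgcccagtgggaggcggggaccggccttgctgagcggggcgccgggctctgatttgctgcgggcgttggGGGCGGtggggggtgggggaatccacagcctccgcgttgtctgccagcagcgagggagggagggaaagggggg
Col5a3 (chr9:20815068-20815317, minus strand): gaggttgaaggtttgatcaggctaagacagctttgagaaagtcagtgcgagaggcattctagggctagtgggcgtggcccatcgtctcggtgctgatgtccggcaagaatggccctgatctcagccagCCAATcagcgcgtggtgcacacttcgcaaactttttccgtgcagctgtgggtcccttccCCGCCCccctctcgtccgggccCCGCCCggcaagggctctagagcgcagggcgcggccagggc
Col13a1 (chr10:61979109-61979358, minus strand): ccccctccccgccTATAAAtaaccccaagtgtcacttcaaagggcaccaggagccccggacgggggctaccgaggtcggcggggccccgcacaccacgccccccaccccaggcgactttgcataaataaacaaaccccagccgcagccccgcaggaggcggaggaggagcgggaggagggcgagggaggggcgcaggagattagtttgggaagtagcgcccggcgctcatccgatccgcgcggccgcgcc

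The table held 35 windows of 33 of the 40 collagen genes. A CCAAT box stood in 12 of these 35 windows and in 33.8% of all 32851 windows, a GC box in 22 of 35 and in 32.7% of all, and a TATA box in 5 of 35 and in 12.4% of all. Of the collagen V genes, Col5a1 had 2 GC boxes and Col5a3 had 2 GC boxes and 1 CCAAT box in this window.

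Of the 40 collagen genes, 28 had a deposited mean of at least 10 normalised reads in some group: 21 in SAR, 28 in model and 21 in normal. The same 21 genes reached it in every group. They were 8 fibrillar genes (Col1a1, Col1a2, Col3a1, Col5a1, Col5a2, Col5a3, Col11a2 and Col27a1), 3 collagen IV genes (Col4a1, Col4a2 and Col4a5) and 10 others (Col6a1, Col6a2, Col6a3, Col12a1, Col13a1, Col14a1, Col15a1, Col16a1, Col18a1 and Col20a1). The other 7 reached it in model livers alone: Col4a3, Col4a4, Col4a6, Col6a5, Col8a1, Col9a3 and Col23a1. Col23a1 lay at the limit, with model means of 10.5 and 9.63 in the 2 deposited tables, and Col7a1 lay just below it, with 8.29. Col6a4, Col6a6, Col7a1, Col8a2, Col9a2, Col10a1, Col11a1, Col17a1, Col22a1, Col24a1, Col25a1 and Col28a1 stayed under 10 in every group, and no library held more than 13.1 normalised reads of any of these 12.

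Per kilobase of exon, Col18a1 had the highest mean of the collagen transcripts in each group, at 1519 ± 289.9 in SAR, 776 ± 176 in model and 1431 ± 238 in normal livers (normalised reads per kb, SD, n = 3 each). The order below it differed between groups. In SAR livers Col5a3 (104 ± 49.7 per kb) and Col3a1 (89.0 ± 56.9 per kb) came next. In model livers they were Col3a1 (654 ± 411 per kb) and Col1a1 (489 ± 339.6 per kb). In normal livers they were Col4a1 (74.5 ± 15.7 per kb) and Col14a1 (42.8 ± 31.1 per kb). Within single libraries, Col3a1 lay above Col18a1 in model a and b (918.6 and 863.1 per kb for Col3a1), and so did Col1a1 in model a (748.7 per kb). In model c Col18a1 (978 per kb) lay above Col3a1 (180 per kb). Col3a1 lay above Col1a1 in all 3 model libraries and Col4a1 above Col14a1 in all 3 normal libraries. Col5a3 lay above Col3a1 in SAR b and c, and in SAR a the values were 154.0 for Col5a3 and 154.4 for Col3a1, so the order in SAR livers was mixed.

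Summed per kb, the fibrillar genes came to 537, 264 and 187 in the SAR libraries, 2273, 1989 and 409 in the model libraries and 96.4, 167 and 33.3 in the normal libraries. The lowest model library lay below the highest SAR library, so these groups overlapped, whereas every model library lay above every normal one. The collagen IV genes summed to 132, 88.5 and 73.4 per kb in SAR, 555, 583 and 263 in model and 94.9, 141 and 96.0 in normal libraries, where no model library overlapped the other groups. The other collagens summed to 1672 ± 269 per kb in SAR, 1339 ± 63.5 in model and 1541 ± 172 in normal livers, and Col18a1 alone made up most of that. With Col18a1 left out, fibrillar genes made up 55.2 ± 4.8% of the collagen sum in SAR, 55.8 ± 12.0% in model and 28.6 ± 8.3% in normal livers, and collagen IV genes made up 17.7 ± 2.6%, 20.2 ± 6.0% and 38.6 ± 14.1% in the same order (SD, n = 3). The fibrillar share of the SAR libraries (50.7% to 60.2%) thus lay above that of the normal libraries (19.0% to 34.4%), although their fibrillar sum was closer to that of the normal than of the model mean. The sums and shares are descriptions and carry no test. In RNA of whole tissue, fewer cells of a type and less RNA per cell cannot be told apart.

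**Figure D1:**
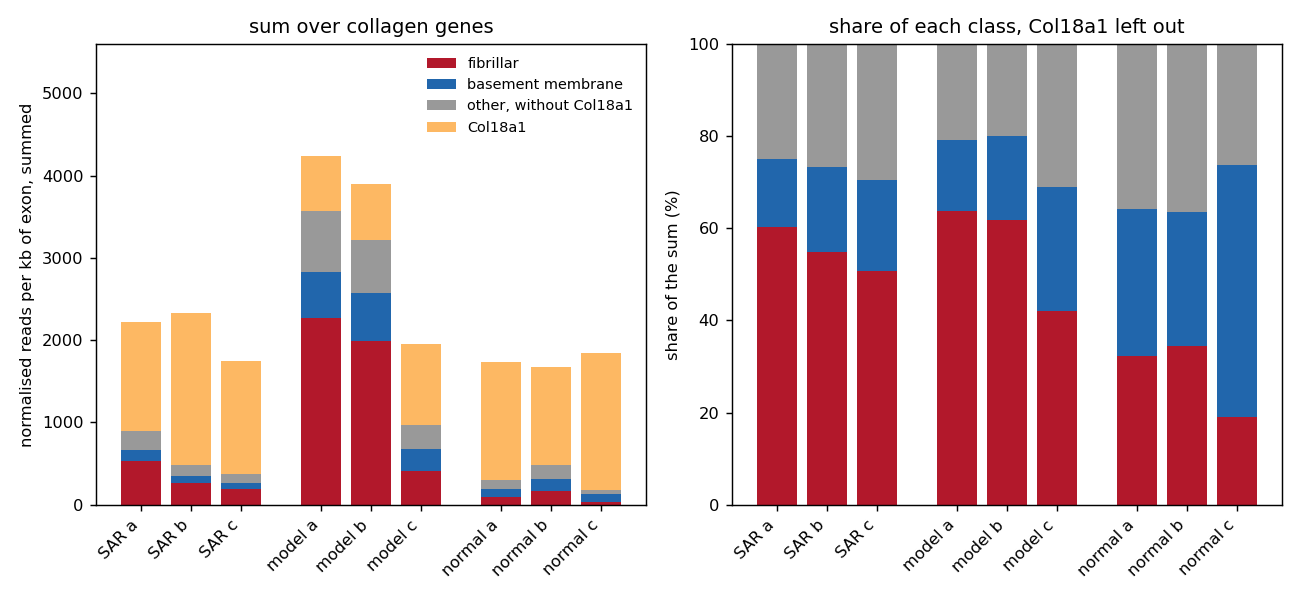
Left, normalised reads per kb of exon summed over collagen genes in each library (stacked bars); right, the share of each class with Col18a1 left out. In model libraries a and b the fibrillar part came to 2273 and 1989 per kb and was the largest, while Col18a1 was the largest part of every SAR and normal library.

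In model livers 13 of the 26 collagen genes tested were higher than in normal livers, with some in each class, and Col18a1 and Col13a1 were lower. The other 11 were not called, Col5a3, Col12a1, Col20a1 and Col27a1 and 4 of 6 collagen IV genes among them. Of the 40 genes 26 reached the filter of a mean of 10 over the 6 libraries, and limma on log2(value + 1), a scale that understates the change of low genes, at an adjusted p below 0.05 called 13 higher, against 20.0% of all 12553 genes tested, and 2 lower, against 19.1% of all. The 13 were 5 of the 8 fibrillar genes tested, 2 of the 6 collagen IV genes and 6 of the 12 others. The median log2 fold change of the 26 was 2.17, beside 0.03 over all genes tested. Of the 26, Col4a3, Col4a4, Col4a6, Col6a5 and Col8a1 passed the filter through the model group alone and so had to differ, and of these Col8a1 was called. Over the other 21 genes the median log2 fold change was 2.24. The authors' deposited table gave an adjusted p for 39 collagen genes. At its own adjusted p below 0.05, 13 of the 39 were higher, against 13.2% of all genes in it, and 2 lower, against 10.3% of all. It shared 12 of the 13 called by limma, and both lower ones. It held Col9a3, which was not in the limma test, and not Col8a1.

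With SAR 16 of the 26 collagen genes tested were lower than in model livers, Col18a1 was higher and 9 were not called. Of these 9, Col5a3, Col27a1 and Col20a1 had positive log2 values. The limma test called 16 lower, against 16.2% of all 12468 genes tested, and 1 higher, against 13.2% of all. The 16 were 6 of 8 fibrillar genes, 3 of 6 collagen IV genes and 7 of 12 others. The median log2 fold change of the 26 was -2.06, beside 0.01 over all genes tested. Col4a3, Col4a4, Col4a6, Col6a5 and Col8a1 again passed the filter through the model group alone and so had to be lower, and none of them was among the 16. Over the other 21 genes the median was -2.00. By the adjusted p of the authors' deposited table, 10 of 39 collagen genes were lower, against 9.76% of all genes in it, and 1 was higher, against 6.79% of all. All 10 were among the 16, and Col18a1 was the higher one in both. Both comparisons use the same 3 model libraries, so a model library that is high or low moves both.

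Between SAR and normal livers few collagen genes passed the test. Of 21 tested, limma called 1 higher, Col5a3, against 1.72% of all 11596 genes tested, and 1 lower, Col13a1, against 1.83% of all. At an unadjusted p below 0.05 there were 5 higher and 3 lower. The share of all genes at that unadjusted threshold was not computed, so these counts cannot be set against it. The median log2 fold change was 0.86 over the 21, 1.77 over the 8 fibrillar genes and -0.50 over the 3 collagen IV genes, beside 0.00 over all genes. These medians rest in part on single libraries: that of the 21 was 0.32 without normal c, 0.54 without SAR a and 1.43 without normal b, and that of the fibrillar genes was 0.84 without normal c. The standard errors of the fibrillar genes (0.37 to 1.31) leave room for differences of several fold, so these values do not show that SAR and normal livers were alike.

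**Figure D2:**
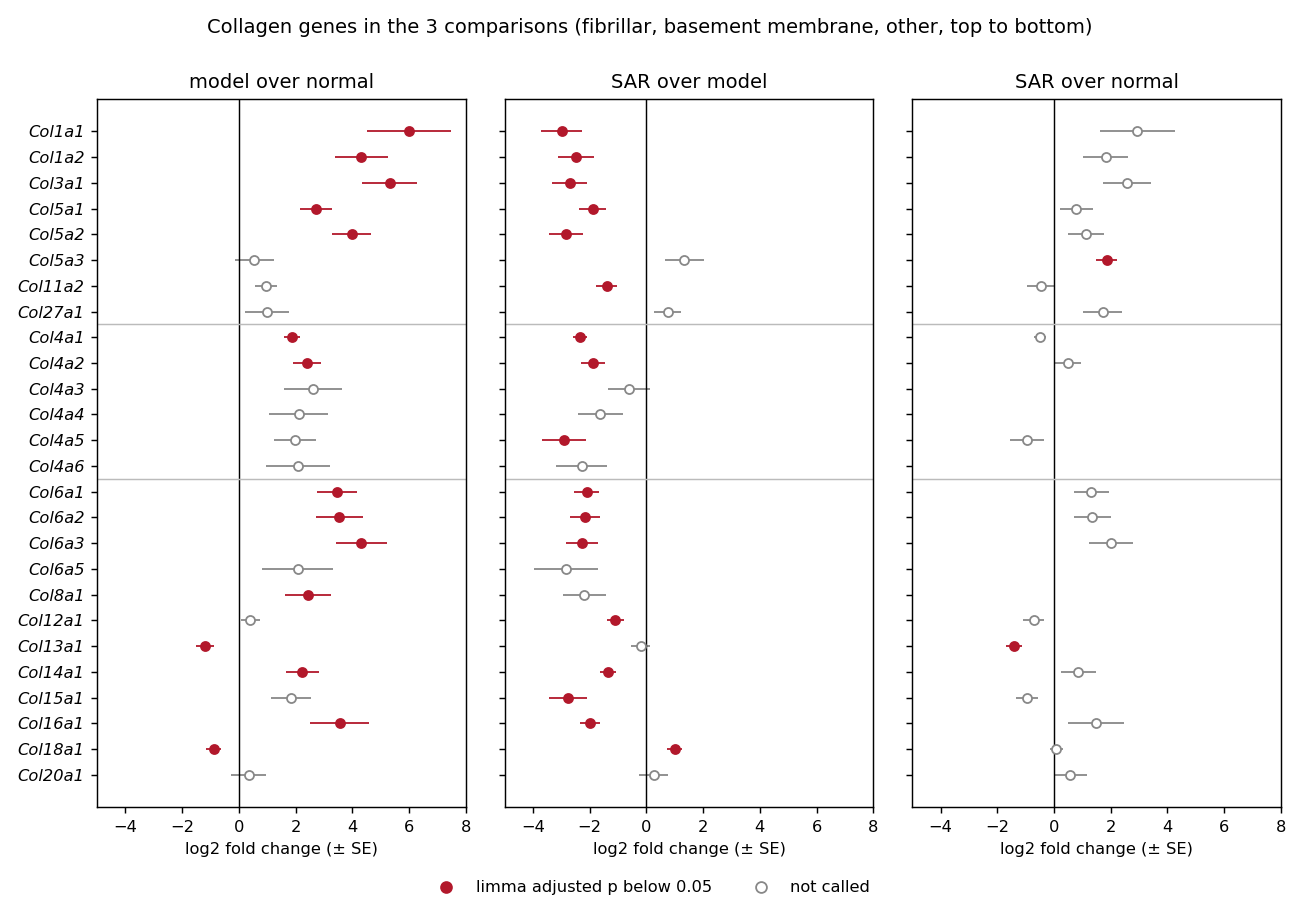
Log2 fold change (x axis, with standard error as bars) of each collagen gene tested, with filled red points for a limma adjusted p below 0.05. Most filled points lie right of 0 for model over normal and left of 0 for SAR over model, with Col18a1 reversed in both. Col5a3, Col20a1 and Col27a1 lie on the right in all 3 panels.

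The calls were sensitive to single libraries. Of the 13 genes higher in model than in normal livers, Col3a1, Col4a1, Col4a2, Col5a1, Col5a2, Col6a1 and Col6a3 stayed called whichever of the 6 libraries was left out, and the number called was 7 without model a, 8 without model b, 17 without model c, 11 without normal a, 13 without normal b and 12 without normal c. Over all genes, the share called higher in these fits was 10.5%, 10.1%, 22.8%, 13.2%, 16.0% and 20.6% in the same order. Without model c and normal c together, an alternative chosen after seeing the data, 20 were higher (29.8% of all genes) and 2 lower (28.4%). Of the 16 lower with SAR, Col4a1, Col5a2, Col6a1, Col14a1 and Col16a1 stayed called in all 6 fits. The number was 15 without SAR a, 5 without SAR b, 7 without SAR c, 5 without model a, 5 without model b and 19 without model c. Over all genes, the share called lower with SAR was 15.2% without SAR a, 9.16% without SAR b, 11.4% without SAR c, 7.60% without model a, 7.36% without model b and 20.9% without model c. For SAR against normal, the call of Col5a3 held without SAR c or normal c and that of Col13a1 without normal c. Other settings also ended calls. In 1 limma fit of all 9 libraries, Col1a1 (adjusted p = 0.107), Col1a2 (0.0526), Col6a3 (0.0591), Col14a1 (0.0872) and Col16a1 (0.114) were not called for SAR against model, nor was Col5a3 for SAR against normal (0.119). With limma voom on reads, Col4a5 (adjusted p = 0.168), Col5a2 (0.0540), Col6a2 (0.0525) and Col15a1 (0.154) were not called for SAR against model, Col8a1 (0.0823) was not for model against normal, and neither Col5a3 (0.0511) nor Col13a1 (0.0616) was for SAR against normal.

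Col1a1 and Col1a2 encode the 2 chains of collagen I, the main collagen of scar tissue. Col1a1 (ENSMUSG00000001506) had 613, 220.3 and 189.8 normalised reads in SAR, 4911, 4032 and 687 in model and 86.4, 194 and 2.21 in normal libraries. Col1a2 had 798, 329 and 321 in SAR, 4650.0, 4102 and 804 in model and 173, 346 and 30.9 in normal libraries. For both genes model a and b were far above all other libraries, model c lay just above the highest SAR library, and normal c was the lowest of all. Col1a1 was higher in model than in normal livers by log2 5.99 (SE 1.47, limma adjusted p = 0.0167) and lower with SAR than in model livers by -2.99 (SE 0.71, limma adjusted p = 0.0154). Between SAR and normal livers it was not called (log2 2.94, SE 1.31, limma adjusted p = 0.197), with log2 1.18 without normal c. Col1a2 was higher in model livers by 4.32 (SE 0.95, limma adjusted p = 0.0114) and lower with SAR by -2.48 (SE 0.63, limma adjusted p = 0.0198). Without normal c the log2 values for model against normal were 4.19 for Col1a1 and 3.34 for Col1a2, and without normal b 7.18 and 5.06. The first call of Col1a1 was lost without model a (limma adjusted p = 0.0716) or model b (0.0622), and that of Col1a2 without model a (0.0525). Both calls with SAR were lost without model a, model b, SAR b or SAR c, with limma adjusted p up to 0.0667 for Col1a1 and 0.0812 for Col1a2. Per kb, the ratio of Col1a1 to Col1a2 was 1.28 ± 0.17 in SAR, 1.83 ± 0.19 in model and 0.71 ± 0.51 in normal livers (SD, n = 3), where normal c, with 2 reads of Col1a1, stood at 0.14.

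Col3a1 encodes collagen III, which forms fibres together with collagen I, and its upstream sequence stands first above. It had 1516, 594 and 509 normalised reads in SAR, 9021, 8476 and 1769.7 in model and 182, 394 and 28.7 in normal libraries. The model libraries lay above all others and the SAR libraries above all normal ones. Model livers were higher than normal ones by log2 5.31 (SE 0.98, limma adjusted p = 0.00644), with log2 4.25 without normal c and 6.12 without normal b. SAR livers were lower than model livers by log2 -2.71 (SE 0.63, limma adjusted p = 0.0139), and this call was lost without model a (0.0532), model b (0.0552), SAR b (0.0624) or SAR c (0.0554). SAR against normal gave log2 2.58 (SE 0.85, limma adjusted p = 0.109), which did not pass, and log2 1.52 without normal c. Col5a2, its neighbour on chromosome 1, is described with collagen V.

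Collagen V, which regulates how thick collagen I fibres grow, is encoded by Col5a1, Col5a2 and Col5a3, and the 3 genes did not share a pattern. Col5a1 had 175, 71.4 and 57.7 normalised reads in SAR, 493, 439.5 and 187 in model and 49.9, 112 and 24.3 in normal libraries. Col5a2 had 82.3, 41.2 and 23.1 in SAR, 599.6, 417 and 124 in model and 13.4, 45.3 and 11.0 in normal libraries. In both genes every model library was above every library of the other groups, and SAR and normal libraries overlapped. Col5a3, the third gene, had 1049, 709 and 372 normalised reads in SAR, 533, 457 and 73.3 in model and 194, 232 and 127 in normal libraries. Its 3 SAR libraries lay above all normal ones, while model a and b lay between SAR b and SAR c and model c was the lowest library of all. Col5a1 was higher in model livers (log2 2.71, SE 0.57, limma adjusted p = 0.00988) and lower with SAR (log2 -1.90, SE 0.46, limma adjusted p = 0.0169), the second call lost without model a, model b, SAR b or SAR c (adjusted p up to 0.0713). Col5a2 was higher in model livers (log2 3.98, SE 0.69, limma adjusted p = 0.00524) and lower with SAR (log2 -2.82, SE 0.60, limma adjusted p = 0.0102), and both calls held without any one library. Col5a3 was not called between model and normal livers (log2 0.55, SE 0.70, limma adjusted p = 0.551) nor between SAR and model livers (log2 1.33, SE 0.69, limma adjusted p = 0.172). It was higher in SAR than in normal livers (log2 1.86, SE 0.37, limma adjusted p = 0.0386), in 3 of 3 SAR libraries. That call was lost without SAR a (0.117), SAR b (0.11), normal a (0.104) or normal b (0.0999), and without model c Col5a3 was higher in model than in normal livers (adjusted p = 0.00571). Per kb, the ratio of Col5a1 to Col5a2 was 2.40 ± 0.43 in SAR, 1.27 ± 0.39 in model and 3.16 ± 0.91 in normal livers (SD, n = 3), with every model library below every SAR and normal one.

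**Figure D3:**
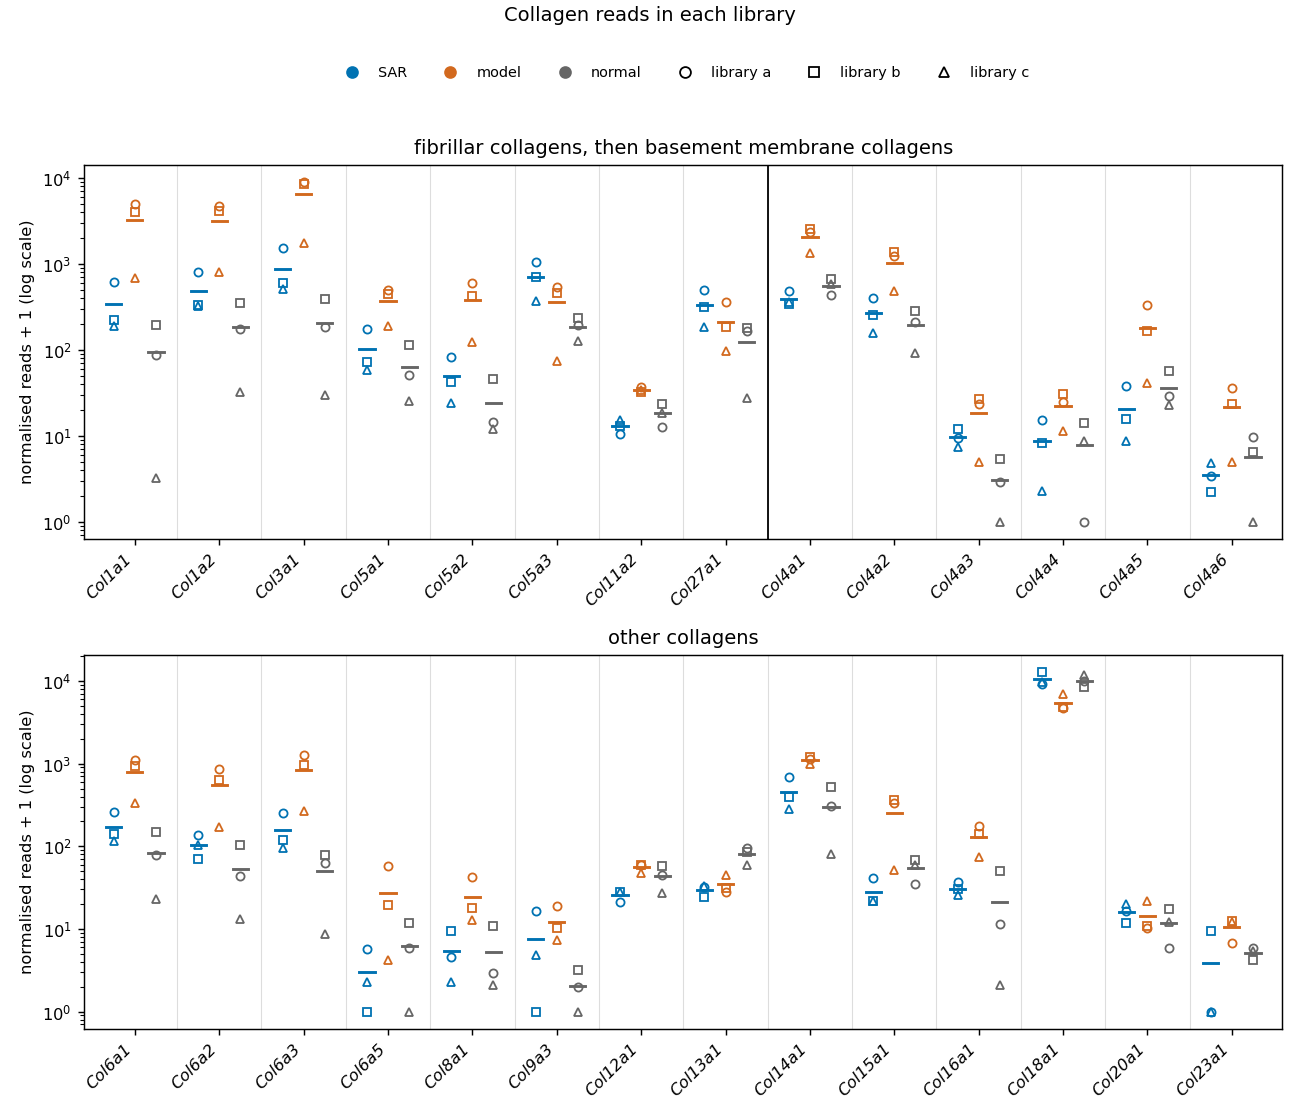
Normalised reads plus 1 (log axis) of the 28 collagen genes with a deposited mean of at least 10 in some group, with 1 symbol per library and a line at the mean of 3. Model library c (triangle) lies below model a and b for most genes, as with Col1a1 at 687 against 4911 and 4032, while Col13a1, Col18a1 and Col20a1 run the other way.

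The remaining fibrillar genes encode minor or recently recognised fibrillar chains. Col11a2, a chain of collagen XI of cartilage, had 9.54, 12.1 and 14.1 normalised reads in SAR, 36.0, 31.3 and 32.7 in model and 11.5, 22.7 and 17.6 in normal libraries. Every model library lay above every other library. It was lower with SAR than in model livers (log2 -1.41, SE 0.38, limma adjusted p = 0.0256), and this call was lost without model a (0.101), model b (0.0926) or SAR b (0.0628), and its model against normal value of log2 0.96 (SE 0.37) did not pass (limma adjusted p = 0.0756). Col27a1, which encodes collagen XXVII, had 499.9, 311 and 185 in SAR, 356, 182 and 96.5 in model and 166, 177 and 26.5 in normal libraries. All 3 SAR libraries lay above the normal ones, yet no comparison of Col27a1 passed, with log2 0.75 for SAR against model and 1.71 for SAR against normal (SE 0.69, limma adjusted p = 0.164). Col5a3 and Col27a1 were the 2 fibrillar genes of 8 with a positive log2 value for SAR against model.

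Col4a1 and Col4a2 encode the chains of the most widespread collagen IV molecule and are neighbours on chromosome 8. Col4a1 had 476, 344 and 357 normalised reads in SAR, 2323, 2565 and 1352 in model and 428, 657 and 583 in normal libraries. Col4a2 had 399, 254 and 154 in SAR, 1227, 1369 and 488 in model and 212, 282 and 91.5 in normal libraries. For both genes the model libraries lay above all others, and model c was again the lowest of them. Col4a1 was higher in model livers (log2 1.87, SE 0.27, limma adjusted p = 0.00305) and lower with SAR (log2 -2.35, SE 0.25, limma adjusted p = 0.000905), and both calls held without any one library. This was the smallest adjusted p of any collagen gene in either comparison. Between SAR and normal livers Col4a1 stood at log2 -0.50 (SE 0.20, limma adjusted p = 0.161). Col4a2 was higher in model livers (log2 2.40, SE 0.50, limma adjusted p = 0.00949) and lower with SAR (log2 -1.88, SE 0.43, limma adjusted p = 0.0135), the second call lost without model a (0.0539), model b (0.055) or SAR b (0.0516). The ratio of Col4a1 to Col4a2 per kb was 1.44 ± 0.54 in SAR, 1.93 ± 0.46 in model and 3.17 ± 2.15 in normal livers, with normal c at 5.65 (SD, n = 3).

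The 4 other collagen IV genes were far less abundant. Col4a5, a chain of the specialised collagen IV of kidney whose loss causes Alport syndrome, had 37.0, 14.5 and 7.70 normalised reads in SAR, 335, 166 and 39.9 in model and 27.8, 55.0 and 22.1 in normal libraries. It was lower with SAR than in model livers (log2 -2.92, SE 0.77, limma adjusted p = 0.0225), and this call was lost without model a, model b, SAR b or SAR c (adjusted p up to 0.0847). For model against normal it gave log2 1.98 (limma adjusted p = 0.0632) and passed without model c (0.00444). Its neighbour on the X chromosome, Col4a6, had 2.39, 1.21 and 3.85 in SAR, 35.3, 22.1 and 3.99 in model and 8.64, 5.40 and 0 in normal libraries. Col4a3 had 8.35, 10.9 and 6.41 and Col4a4 14.3, 7.26 and 1.28 in SAR libraries, 22.3, 25.9 and 3.99 and 23.8, 29.8 and 10.4 in model libraries and 1.92, 4.32 and 0 and 0, 12.9 and 7.72 in normal libraries. In these 3 genes model a and b were the highest libraries. Model c overlapped both other groups for Col4a3 and Col4a4 and the normal group for Col4a6, and no comparison with all libraries passed (limma adjusted p from 0.073 to 0.542). Without model c, Col4a3 passed in model against normal (0.0249) and Col4a6 in SAR against model (0.00865).

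Among the other collagens, collagen VI showed the same direction as the fibrillar genes. Col6a1 had 262, 138 and 114 normalised reads in SAR, 1119, 937 and 337 in model and 77.8, 149 and 22.1 in normal libraries. Its neighbour on chromosome 10, Col6a2, had 135, 69.0 and 104 in SAR, 867, 634 and 169 in model and 42.2, 104 and 12.1 in normal libraries. Col6a3 had 252, 119 and 93.6 in SAR, 1277, 965 and 265 in model and 61.5, 76.6 and 7.72 in normal libraries. In all 3 genes every model library lay above every other library, and for Col6a3 every SAR library lay above every normal one. The 3 genes were higher in model livers, by log2 3.45 for Col6a1 (SE 0.70, limma adjusted p = 0.00877), 3.54 for Col6a2 (SE 0.83, limma adjusted p = 0.014) and 4.31 for Col6a3 (SE 0.89, limma adjusted p = 0.00936). They were lower with SAR, by log2 -2.11 (SE 0.45, limma adjusted p = 0.0106), -2.17 (SE 0.54, limma adjusted p = 0.0179) and -2.26 (SE 0.56, limma adjusted p = 0.0181) in the same order of genes. Without normal c the log2 values for model against normal were 2.70, 2.76 and 3.31 in that order. The call of Col6a2 in model livers was lost without model a (0.0627) or model b (0.0556), and the calls of Col6a2 and Col6a3 with SAR without model a, model b, SAR b or SAR c (adjusted p up to 0.0771 and 0.0732). Col6a5, an alternative collagen VI chain, had 4.77, 0 and 1.28 in SAR, 56.9, 18.3 and 3.19 in model and 4.80, 10.8 and 0 in normal libraries and passed in no comparison with all libraries, and in SAR against model without model c (0.0112).

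Of the collagens that sit on the surface of fibres, Col14a1 was the most abundant, with 681, 393 and 282 normalised reads in SAR, 1135, 1205 and 985 in model and 305, 516 and 79.4 in normal libraries. Every model library, model c included, lay above all others. Col14a1 was higher in model livers (log2 2.24, SE 0.59, limma adjusted p = 0.0212, lost without model a at 0.0741 or model b at 0.0701) and lower with SAR (log2 -1.36, SE 0.28, limma adjusted p = 0.00946). Col16a1 had 35.8, 29.0 and 24.4 in SAR, 176, 141 and 73.3 in model and 10.6, 49.6 and 1.10 in normal libraries. It was higher in model livers (log2 3.55, SE 1.04, limma adjusted p = 0.0306, lost without model a at 0.11, model b at 0.0936 or normal a at 0.0762) and lower with SAR (log2 -2.00, SE 0.35, limma adjusted p = 0.00502). For Col16a1, too, the model libraries did not overlap any other library. Without normal c the log2 values for model against normal were 1.47 for Col14a1 and 2.35 for Col16a1, and without normal b 2.81 and 4.68. Col12a1 had 20.3, 26.6 and 26.9 in SAR, 58.3, 58.8 and 46.2 in model and 44.2, 57.2 and 26.5 in normal libraries. It was lower with SAR than in model livers (log2 -1.10, SE 0.30, limma adjusted p = 0.0257), and this call was lost in 5 of the 6 fits that left out a library (adjusted p up to 0.11), and its model and normal libraries overlapped (log2 0.40, limma adjusted p = 0.364). Col20a1 had 15.5, 10.9 and 19.2 in SAR, 9.36, 9.92 and 20.7 in model and 4.80, 16.2 and 11.0 in normal libraries, which overlapped throughout, and no comparison of it passed.

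Col18a1 and Col15a1 encode the 2 multiplexins, collagens of basement membrane zones, and moved apart. Col18a1 had 9309, 13003 and 9674 normalised reads in SAR, 4671, 4798 and 6869 in model and 10080.4, 8364 and 11703 in normal libraries. Every model library lay below every SAR and normal library. It was lower in model than in normal livers (log2 -0.89, SE 0.28, limma adjusted p = 0.0359) and higher with SAR than in model livers (log2 0.996, SE 0.26, limma adjusted p = 0.0227), each time in 3 of 3 libraries. The first call held only without model c (0.00827) and rose to 0.157 without model b; the second held without model c or SAR a and rose to 0.115 without model b. SAR against normal gave log2 0.08 (SE 0.22, limma adjusted p = 0.841). Hnf4a, a transcription factor of hepatocytes, moved in the same directions, with 10498, 12142 and 10118 in SAR, 4129.6, 5161 and 5008 in model and 12692, 11712 and 12037 in normal libraries (model against normal log2 -1.36, limma adjusted p = 0.00544; SAR against model log2 1.22, limma adjusted p = 0.00606). Of the 10 listed hepatocyte markers, Hnf4a was the 1 whose reads were recovered in all 9 libraries. By the deposited means the others were lower in model than in normal livers to different degrees, except Ahsg (116207 in model, 115499 in normal). All of them were higher in SAR than in model livers. Against the normal means, which were scaled separately, Cps1 (32783.9 in SAR, 90291.6 in normal), Fgb (68755.8 and 147080), Tat and Ass1 stayed lower. Alb, Ttr and Serpina1a lay above the normal means, and Apoa1 and Ahsg differed little. The part of Hnf4a in the Col18a1 result was not tested. Col15a1 had 40.6, 20.6 and 20.5 in SAR, 334, 361 and 51.0 in model and 33.6, 66.9 and 58.4 in normal libraries. Model a and b were far above all others, and model c lay within the normal libraries. Col15a1 was lower with SAR than in model livers (log2 -2.77, SE 0.68, limma adjusted p = 0.0174, lost without model a, model b, SAR b or SAR c at up to 0.0709). It did not pass in model against normal (log2 1.83, limma adjusted p = 0.0748), and passed there without model c (0.00141).

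Col13a1, which encodes a collagen anchored in the cell membrane, was low in both groups on the MCD diet. It had 31.0, 23.0 and 32.1 normalised reads in SAR, 27.4, 30.5 and 43.8 in model and 93.1, 85.3 and 58.4 in normal libraries. No SAR or model library reached the lowest normal library. It was lower than in normal livers both in model livers (log2 -1.20, SE 0.31, limma adjusted p = 0.0192) and in SAR livers (log2 -1.41, SE 0.29, limma adjusted p = 0.043), and these comparisons share the normal libraries. SAR against model gave log2 -0.20 (SE 0.34, limma adjusted p = 0.681). The model call was lost without model a (0.0695), model b (0.0695), normal a (0.0778) or normal b (0.0622), and the SAR call without any library but normal c (up to 0.15). Col8a1, a short-chain collagen of vessel walls, had 3.58, 8.47 and 1.28 in SAR, 41.0, 16.8 and 12.0 in model and 1.92, 9.71 and 1.10 in normal libraries. It was higher in model livers (log2 2.44, SE 0.82, limma adjusted p = 0.0488) at the edge of the threshold, and the call was lost without model a (0.179), model b (0.115), normal a (0.127) or normal c (0.0883). Without model c it was also lower with SAR than in model livers (0.0293), which it was not with all libraries (log2 -2.19, limma adjusted p = 0.0566). Col9a3, a chain of collagen IX of cartilage, and Col23a1, a membrane collagen, were not tested, since their means over the compared libraries stayed under 10. Col9a3 had 15.5, 0 and 3.85 in SAR, 18.0, 9.16 and 6.38 in model and 0.960, 2.16 and 0 in normal libraries. Col23a1 had 0, 8.47 and 0 in SAR, 5.76, 11.4 and 11.2 in model and 4.80, 3.24 and 4.41 in normal libraries. For Col9a3 the model group held 45 reads in all against 3 in the normal group, a ratio after scaling of 10.9 with an exact 95% interval of 3.50 to 54.9 that covers counting error only.

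Genes that lie next to each other moved together in some pairs. The neighbours Col3a1 and Col5a2, Col4a1 and Col4a2, and Col6a1 and Col6a2 were each called higher in model livers and lower with SAR. So were Col1a1, Col1a2, Col5a1, Col6a3, Col14a1 and Col16a1, which have no collagen gene as neighbour, so the pattern was not particular to neighbours. In the neighbours Col4a3 and Col4a4 no member was called, and of Col4a5 and Col4a6 Col4a5 alone was called, lower with SAR. The difference between members of a pair was not tested.

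The genes that fold, trim and crosslink collagen followed the fibrillar collagens in part. Of 32 listed, 28 were tested in model against normal livers, where 16 were higher (57.1%, against 20.0% of all genes) and 4 lower (14.3%, against 19.1%). In SAR against model livers 27 were tested, where 13 were lower (48.1%, against 16.2% of all genes) and 3 higher (11.1%, against 13.2%). Of the 16, Plod2, P3h2 and Fkbp10 had means under 10 in normal livers, and of the 13, Loxl4 and P3h4 had means under 10 in SAR livers, so these 5 passed the filter through the model group alone and had to differ in that direction. Serpinh1, the collagen chaperone of the endoplasmic reticulum, had 481, 207 and 179.6 normalised reads in SAR, 2068, 2011 and 484 in model and 83.5, 127 and 27.6 in normal libraries. It was higher in model livers (log2 4.22, limma adjusted p = 0.0044) and lower with SAR (log2 -2.25, limma adjusted p = 0.0186). The crosslinking enzymes Loxl1 (log2 4.27, limma adjusted p = 0.00987), Lox (3.58, 0.0212) and Loxl2 (3.16, 0.00776) and the lysyl hydroxylase Plod2 (3.69, 0.013) were higher in model livers. With SAR, Loxl2 was lower (log2 -2.18, limma adjusted p = 0.00418) and Lox did not pass (log2 -1.89, limma adjusted p = 0.0511). By the size of the log2 value, Loxl4 (log2 -3.30, limma adjusted p = 0.022), the procollagen N-proteinase Adamts14 (-2.77, 0.0129) and P3h4 (-2.26, 0.0388) led the list with SAR. Bmp1, the procollagen C-proteinase, and Mia3, which helps load collagen into transport vesicles, ran the other way: they were lower in model livers (log2 -1.06 and -0.85, limma adjusted p = 0.00274 and 0.00823) and higher with SAR (log2 0.83 and 1.02, limma adjusted p = 0.0076 and 0.00798). Of the prolyl hydroxylase subunits, P4ha1 was higher than in normal livers both in model (log2 1.15, limma adjusted p = 0.0129) and in SAR livers (log2 1.12, limma adjusted p = 0.0472), and P4ha2 passed in no comparison (log2 0.21 in model livers against normal ones, log2 -0.26 with SAR against model). In SAR against normal livers 24 of the list were tested, and besides P4ha1 the collagen galactosyltransferase Colgalt1 was called, lower (log2 -0.93, limma adjusted p = 0.0386). The P4ha1 call in SAR livers was lost without SAR a, SAR b, SAR c, normal a or normal b. That of Colgalt1 was lost without SAR a, SAR b, normal a or normal b.

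Of the receptors and uptake proteins for collagen, 10 of 11 were tested. The tyrosine kinase receptor Ddr1 had 100.2, 32.7 and 47.5 normalised reads in SAR, 482, 498 and 124 in model and 39.4, 34.5 and 14.3 in normal libraries. In model livers 4 of the 10 were higher (against 20.0% of all genes), Ddr1 (log2 3.48, limma adjusted p = 0.00516), the endocytic receptor Mrc2 (3.39, 0.0155), the integrin subunit Itga11 (2.99, 0.0456) and the inhibitory immune receptor Lair1, and 6 were not called. Itga11, with a mean under 10 in normal livers, passed the filter through the model group alone and had to be higher. With SAR 5 of the 10 were lower (against 16.2% of all genes) and 5 were not called, with Ddr1 (log2 -2.48, limma adjusted p = 0.0132), Mrc2 (-2.03, 0.0182) and Lair1 (-1.41, 0.00276) changing most. Of the proteoglycans and matrix proteins that bind collagen, 10 of 14 tested were higher in model livers (71.4%, against 20.0% of all genes), led by Tnc, which encodes tenascin C (log2 4.51, limma adjusted p = 0.0246), Lum, lumican (3.37, 0.0171), and Postn, periostin (3.10, 0.0127). With SAR 10 of 15 were lower (66.7%, against 16.2% of all genes), led by Fbn1, fibrillin 1 (log2 -2.58, limma adjusted p = 0.0168), Postn (-2.46, 0.00128) and Tnc (-2.41, 0.00816), and 1, Omd, was higher (log2 1.66, limma adjusted p = 0.0146).

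Of 18 partners of collagen IV in basement membranes, 7 were higher (38.9%, against 20.0% of all genes) and 1 lower (5.56%, against 19.1%) in model livers, with the laminin chains Lamb1 (log2 2.75, limma adjusted p = 0.0134) and Lama5 (2.49, 0.0196) and the calcium-binding Smoc2 (2.26, 0.0216) changing most. With SAR 7 were lower (38.9%, against 16.2% of all genes) and 1 higher (5.56%, against 13.2%) than in model livers. Nid1, which links laminin to collagen IV, had 162, 108 and 103 normalised reads in SAR, 691, 857 and 487 in model and 129.6, 216 and 98.1 in normal libraries and was lower with SAR (log2 -2.41, limma adjusted p = 0.000814), as was Lama5 (-2.27, 0.0232), while the laminin chain Lama3 was higher (log2 2.61, limma adjusted p = 0.00346). The laminin chain Lamb3, like Col13a1, was lower than in normal livers in both model (log2 -1.96, limma adjusted p = 0.00507) and SAR livers (log2 -2.31, limma adjusted p = 0.0296). Its call in SAR livers was lost without SAR a, SAR b, normal a or normal b. Over the 4 lists together, 37 were higher and 5 lower of 70 tested in model against normal livers, 35 lower and 5 higher of 70 in SAR against model livers, and 1 higher and 2 lower of 65 in SAR against normal livers, near the 1.72% and 1.83% of all genes. Without model c and normal c together 46 were higher and 10 lower in model livers, against 29.8% and 28.4% of all genes. Without model c 46 were lower and 8 higher with SAR, against 20.9% and 20.4%. Without model a or model b the number higher in model livers fell to 14 and 15, against 10.5% and 10.1% of all genes. The number lower with SAR fell to 15 without model a, 17 without model b, 19 without SAR b and 22 without SAR c. The shares of all genes there were 7.60%, 7.36%, 9.16% and 11.4%. Which of the partner genes named above lost their calls in these 2 comparisons is not given here.

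**Figure D4:**
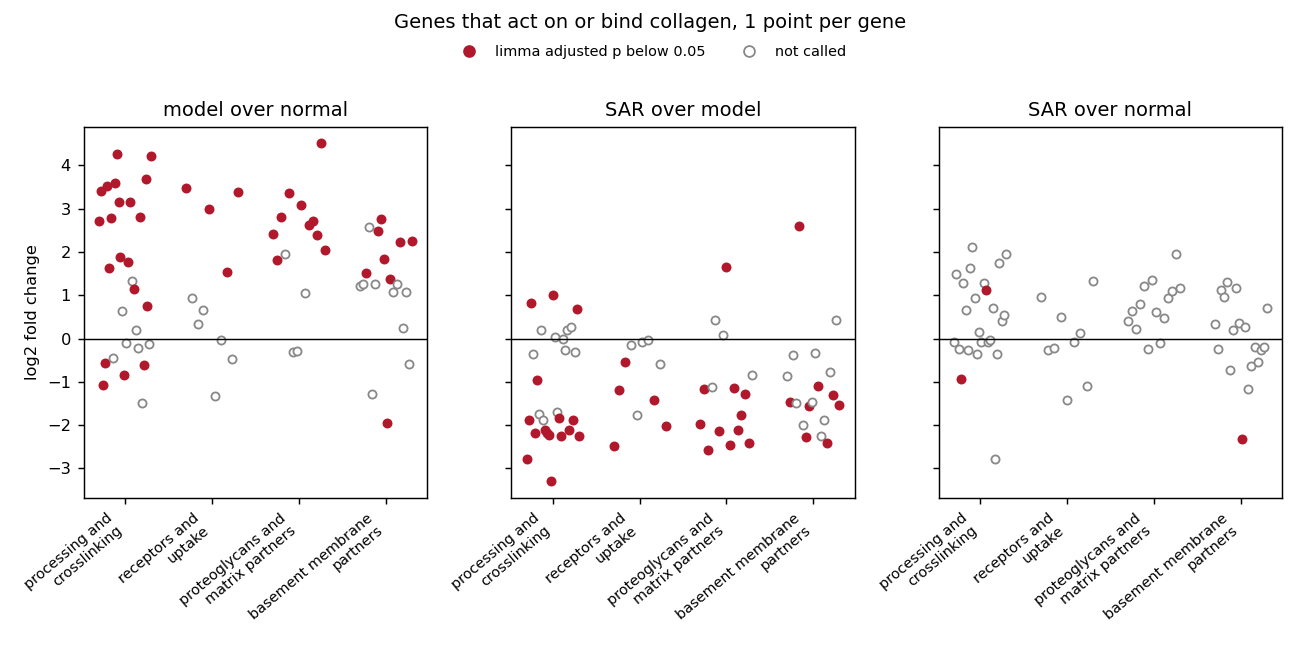
Log2 fold change (y axis) of each tested gene of the 4 lists of collagen partners, 1 point per gene, filled red for a limma adjusted p below 0.05. Filled points lie mainly above 0 for model over normal and below 0 for SAR over model, with Lama3, Omd, Mia3, Bmp1 and Ppib above 0 in the middle panel.

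Marker lists of liver cell types were counted in the same comparisons, where 20.0% of all genes were higher and 19.1% lower in model livers, and 16.2% were lower with SAR. Of the hepatic stellate cell markers 8 of 13 tested were higher in model than in normal livers and 9 of 13 were lower with SAR, and their summed level ranged from 2222 to 3502 normalised reads in SAR, 5090 to 5877 in model and 834 to 2865 in normal libraries. Within the model group the stellate sum was highest in library c, but its members differed: Ecm1 had 1037, 992 and 2099 normalised reads in the model libraries, while Acta2, the smooth muscle actin of activated stellate cells, had 420.4, 359 and 116 and Pdgfrb, a growth factor receptor, had 455, 334 and 211. Portal fibroblast markers were higher in model livers for 3 of 8 tested and lower with SAR for 4 of 8, with sums of 277 to 462 in SAR, 412 to 2200 in model and 104 to 602 in normal libraries, and of these Upk1b was at 0 in all SAR and model libraries. Among the stellate markers Tagln had at most 4.77 normalised reads in any library. Cholangiocyte markers were higher for 9 of 11, of which 5 passed the filter through the model group alone, and lower with SAR for 6 of 11, of which 3 did, with sums of 932 to 1945 in SAR, 2155 to 11433 in model and 588 to 1052 in normal libraries. In model library c the portal fibroblast sum (412) and the cholangiocyte sum (2155) were the lowest of the group, as were the fibrillar and collagen IV sums. Macrophage markers were higher for 6 of 10, of which Mmp12 passed the filter through the model group alone, and lower for 3, and 7 of 10 were lower with SAR, with sums of 3031 to 4040 in SAR, 9815 to 11133 in model and 3053 to 3483 in normal libraries. The similar SAR and normal sums held members called in opposite directions. In SAR against normal livers 5 of the 10 macrophage markers were higher (against 1.72% of all genes) and 3 lower (against 1.83%). Of the 5, Mmp12 passed the filter through the SAR group alone. How the calls of these marker lists change without each library was not examined. Over all genes, the share called higher in SAR against normal ranged from 0.0345% without SAR a to 4.4% without normal c. Endothelial markers were higher for 1 of 13 and lower for 4, and 4 of 13 were lower with SAR, with sums of 1994 to 3943 in SAR, 4598 to 4728 in model and 3275 to 7271 in normal libraries. Neutrophil markers summed to 224 to 572 in SAR, 1225 to 2721 in model and 102 to 7384 in normal libraries, with the highest value in normal c, the library with the fewest fibrillar collagen reads, and 6 of 8 were lower with SAR, of which Mpo and Ngp passed the filter through the model group alone, while 1 of 8 was higher in model livers. The part of these cell types in the collagen results was not tested.

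**Figure D5:**
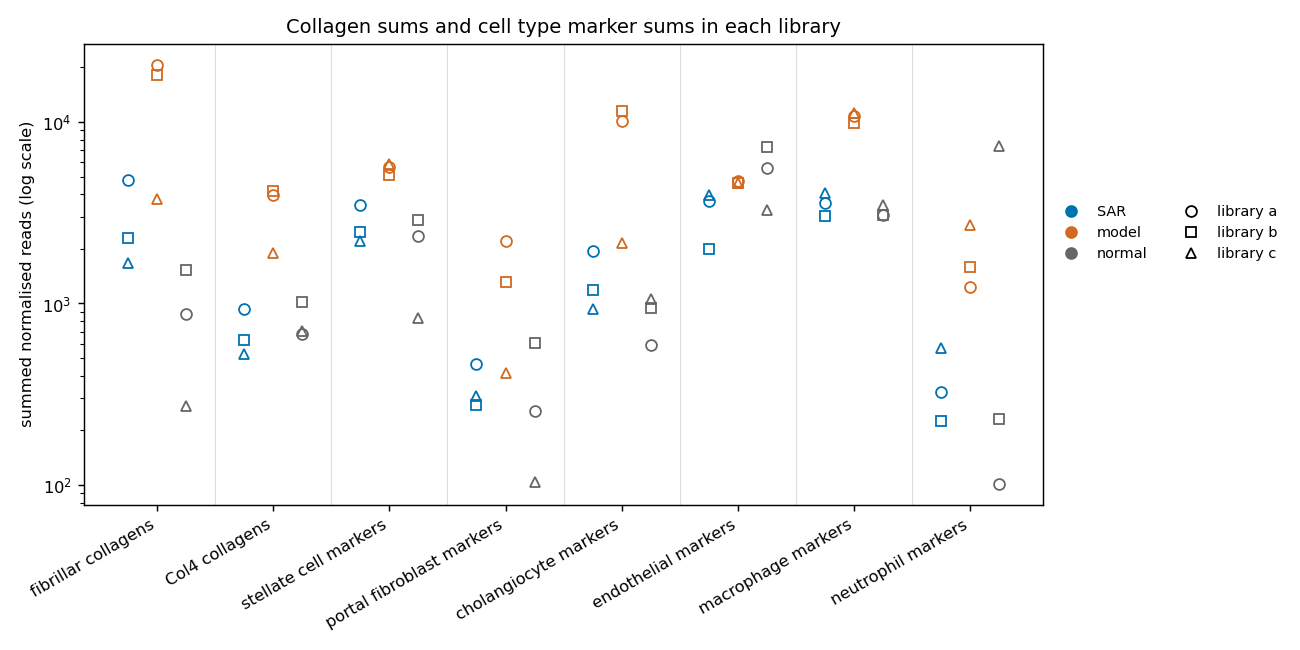
Summed normalised reads (log axis) of the fibrillar and collagen IV genes and of each cell type marker list in every library. The cholangiocyte sum separates model c (2155) from model a and b much as the fibrillar sum does, and the stellate sums of the 3 model libraries lie between 5090 and 5877, although single stellate markers such as Acta2 differ between them.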

How the data were processed

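Total RNA of 9 C57BL/6 mouse liver samples was sequenced with Trizol extraction and a NEBNext Ultra kit, per the labels' protocols, with mm9 as the build named by the submitters' processing notes. How reads were aligned and counted, with which annotation and with or without strand, is not given in the sources used here, so reads of overlapping genes may be shared. Of the 28 collagen genes described, 8 overlap exons of another gene, by at most 6.07% of their length. The authors deposited 2 tables, model with normal and SAR with model, which hold the mean signal of each group (reads divided by size factors), a fold ratio, its log2 value, and a p-value with its adjusted value.

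Whole reads of the libraries were recovered from the 15 digits of the deposited means: 16415 of 16521 genes in all 9 libraries. The model reads solved separately in both tables were identical for 15982 of 15982 genes. Printed levels were put on 1 scale for all 9 libraries by the median of ratios. The fits of model against normal and SAR against model used the size factors behind the deposited means. The fit of SAR against normal used size factors recomputed over its 6 libraries. Comparisons used limma 3.58.1 (R 4.3.3) with a mean trend on log2(value + 1) over the 6 libraries compared, for genes with a mean of at least 10, two-sided, at a threshold of 0.05 after Benjamini-Hochberg adjustment across every gene tested. No count model was used. Lengths per kb are of merged exons in the reference annotation. On simulated data the recovery and the limma steps were tested.

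Partner genes are named by a rule: the 3 with the largest absolute log2 fold change among those called in each list and comparison, plus Serpinh1, Lox, Loxl2, P4ha1 and P4ha2. Bmp1, Mia3, Ppib and Omd, and Lair1 and Lamb3 in model livers, were chosen after their values were seen. The members and lists were chosen with earlier results of these data known. Alternatives were other pseudocounts, filters and scaling, voom, 1 fit of all libraries and leaving out each library.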

Additional observations from a re-analysis of the deposited data

How the results depend on the processing

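No paired analysis was possible because the recovered libraries carry no replicate number. Leaving out each library in turn, the collagen genes called by limma ranged from 7 to 17 higher and 0 to 2 lower in model against normal, 0 to 1 higher and 5 to 19 lower in SAR against model, and 0 to 1 higher and 0 to 1 lower in SAR against normal. Those of the 4 partner lists ranged from 14 to 42 higher and 3 to 7 lower, 3 to 8 higher and 15 to 46 lower, and 0 to 2 higher and 0 to 4 lower in the same comparisons. The share of all genes called moved in these fits too. It ranged from 10.1% to 22.8% higher and 9.37% to 23.4% lower in model against normal. In SAR against model it was 5.04% to 20.4% higher and 7.36% to 20.9% lower. In SAR against normal it was 0.0345% to 4.4% higher and 0.00862% to 4.53% lower. Single genes changed sign 3 times, each uncalled: Col20a1 in model against normal without normal a, where log2 values ranged from -0.092 to 0.697, and Col18a1 in SAR against normal without SAR b or normal b (-0.04), where they ranged from -0.0745 to 0.199. Over the collagen genes called and the fits that left out a library, the call was kept in 67 of 90 cases in model against normal, 55 of 102 in SAR against model and 3 of 12 in SAR against normal.

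With every gene of at least 1 read tested, 1 collagen gene was lower in model against normal, none was lower in SAR against normal (0), and 0 partner genes were higher in SAR against normal. Without model c and normal c together, chosen after seeing the data, 20 collagen genes were higher and 10 partner genes lower in model against normal. By the authors' deposited adjusted p, 10 of 39 collagen genes were lower with SAR and 3 of 77 partner genes lower in model against normal. In SAR against normal, 0 collagen genes were higher in 1 fit of all 9 libraries or with limma voom, 0 were lower with voom or a mean of at least 50, and 1 partner gene was lower with voom. These fewer calls do not show that the genes did not differ. Other pseudocounts and upper quartile scaling moved no count of collagen calls by more than 1.5 times. The causes were not tested. Genes under a mean of 10 over the compared libraries were left out of the main fits, and the part of sequencing depth in their values was not tested.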
